A study of Mus musculus with 15 samples.

Results

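The insulin-like growth factor (IGF) system was read out in 10 genes: the ligands IGF1 and IGF2, the receptors IGF1R and IGF2R, and the binding proteins IGFBP2 to IGFBP7. They were taken by symbol from an expression table of 24891 genes, and all 10 were found. The family was chosen by its IGFBP3 values, because the difference in IGFBP3 between B7-H3 shRNA and control shRNA was not the same in sorted cells as in bulk tumors. The values of IGFBP3 are therefore given as a description with no p-value, and so is every difference between the sorted and the bulk contrast. RNA was sequenced from subcutaneous tumors of Tsc2-deficient 105K renal tumor cells, grown in wild-type C57BL/6J males that were injected at 6 weeks of age with cells in matrigel. The 15 libraries fall into 5 groups of 3: bulk sh-NC and bulk sh-B7-H3 (1) tumors, and tumor cells sorted from sh-NC, from sh-B7-H3 (1) and from sh-B7-H3 (2) tumors, where sh-NC is a non-targeting shRNA. All injected cells lack Tsc2 and carry an shRNA vector. B7-H3, encoded by CD276, is an immune checkpoint protein, and (1) and (2) are different shRNAs against it. Each shRNA line was a stable pool rather than a set of clones, bulk tumors hold host cells beside tumor cells, and sorting meant keeping what passed a magnetic column once non-tumor cells had been bound.

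IGF1 and IGF2 are secreted peptides that signal through IGF1R, a receptor tyrosine kinase that drives PI3K-AKT and RAS-MAPK signaling and, through AKT and the TSC proteins, mTORC1. IGF2R, the cation-independent mannose 6-phosphate receptor, takes up IGF2 for degradation and carries lysosomal enzymes. The binding proteins hold IGFs in the extracellular space, prolong their life or keep them from the receptor, and release them when proteases cut them. IGFBP3 is the main carrier of IGFs in blood, and IGFBP7 binds IGFs with low affinity.

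Values are FPKM, reads relative to transcript length and library size, divided by a further factor per library (scaled FPKM). The spacing of the lowest values gave an estimated depth between 16400000 and 34800000 reads per library. The RNA of the targeted gene did not follow every label. CD276 was at 34.0, 20.004 and 17.3 scaled FPKM in sorted sh-NC cells and at 7.29, 14.0 and 11.5 in sorted sh-B7-H3 (1) cells. It was at 23.3, 25.4 and 25.7 in sorted cells labelled sh-B7-H3 (2), inside the sh-NC range. In bulk it was at 20.8, 23.2 and 23.5 with sh-NC and at 22.3, 17.8 and 24.4 in tumors labelled sh-B7-H3 (1), so those groups overlapped. Protein was not measured in these files, and the groups are named here by their labels. One library stood apart: the summed level of 10 macrophage markers was 787 in replicate 1 of sorted sh-B7-H3 (2), against 36.3 to 98.2 in the other sorted libraries and 879 to 1564 in bulk. Called changes of members and pathway genes with sh-B7-H3 (2) against sh-NC are given with and without it.

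The members lie at scattered places, with a few close neighbors (RefSeq, GRCm38.p6, the assembly behind the mm10 build of the files). IGFBP3 (chr11:7206086-7215498, minus strand) lies 3539 bases beyond IGFBP1, and IGFBP2 (chr1:72824480-72852474, plus strand) and IGFBP5 (chr1:72858065-72874865, minus strand) converge on each other with 5590 bases between them. IGF1 is at chr10:87858265-87937047. The 250 bases before the RefSeq start are shown for the 3 binding protein genes that the results turn on: IGFBP3, low in sorted control cells, and the neighbors IGFBP2 and IGFBP5, which went opposite ways with sh-B7-H3 (2). Capitals mark every CG dinucleotide, the site of DNA methylation in mammals.
IGFBP3, chr11:7213924-7214173, minus strand: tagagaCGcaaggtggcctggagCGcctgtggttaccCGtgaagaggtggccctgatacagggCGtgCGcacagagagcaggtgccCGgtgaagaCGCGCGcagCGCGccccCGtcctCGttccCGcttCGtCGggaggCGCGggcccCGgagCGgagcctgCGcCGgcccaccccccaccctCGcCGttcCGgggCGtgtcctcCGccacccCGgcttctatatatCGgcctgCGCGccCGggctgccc
IGFBP2, chr1:72824230-72824479, plus strand: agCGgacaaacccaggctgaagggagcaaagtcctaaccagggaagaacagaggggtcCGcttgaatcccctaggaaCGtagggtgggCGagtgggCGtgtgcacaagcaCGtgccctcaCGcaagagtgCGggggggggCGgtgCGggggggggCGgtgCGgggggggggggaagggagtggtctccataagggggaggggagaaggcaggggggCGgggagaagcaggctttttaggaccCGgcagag
IGFBP5, chr1:72874866-72875115, minus strand: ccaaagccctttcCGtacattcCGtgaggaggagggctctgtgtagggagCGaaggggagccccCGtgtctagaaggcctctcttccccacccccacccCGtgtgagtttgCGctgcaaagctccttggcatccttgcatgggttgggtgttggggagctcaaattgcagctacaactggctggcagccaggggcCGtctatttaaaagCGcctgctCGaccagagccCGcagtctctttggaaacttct
A second RefSeq start of IGFBP2 has its own stretch at chr1:72825137-72825386, with 11 CG and no GGGCGG, which is not shown. The RefSeq span of IGFBP3 reaches beyond the start used here, so its stretch lies within that span. The IGFBP3 stretch holds 32 CG, a number reached by 4.58% of the 32851 windows of this length in the RefSeq table. The IGFBP2 stretch shown has 14 and that of IGFBP5 has 10, which 29.4% and 37.8% of windows reach. The letters GGGCGG, a GC box, were searched on both strands and occur 3 times in the IGFBP2 stretch shown and not in those of IGFBP3 or IGFBP5, while 32.7% of all windows hold them. The letters TATAAA, searched in the same way and held by 12.4% of windows, are in none of these 3 stretches. The IGFBP3 and IGFBP2 stretches meet no GENCODE vM21 exon, and 19 bases of the IGFBP5 stretch do.

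IGFBP3 was low in 1 group of libraries only, the sorted control cells. It stood at 9.17, 12.9 and 8.39 scaled FPKM in sorted sh-NC, at 84.8, 67.2 and 64.5 in sorted sh-B7-H3 (1), and at 99.3, 60.6 and 60.6 in sorted sh-B7-H3 (2). The highest sorted control library was below the lowest sorted sh-B7-H3 library by a wide margin, and the groups with shRNAs (1) and (2) overlapped. In bulk it stood at 86.7, 96.3 and 123 with sh-NC and at 155, 154 and 132 with sh-B7-H3 (1). These groups did not overlap either, but the gap between them was small. On the log2 scale of scaled FPKM plus 1, on which all changes and folds here are given, sorted cells with sh-B7-H3 (1) were 2.73 ± 0.19 (SE, n = 3 per group) above sh-NC, a 6.61-fold difference. Cells labelled sh-B7-H3 (2) were 2.72 ± 0.23 above it, and 2.49 ± 0.20 without replicate 1. Bulk tumors labelled sh-B7-H3 (1) were 0.53 ± 0.15 above their control, a 1.45-fold difference, so the sorted contrast exceeded the bulk contrast by 2.19 ± 0.25. Without any 1 of the 12 libraries of this contrast the excess lay between 2.05 and 2.36. Bulk sh-NC tumors held 9.29 times the IGFBP3 of sorted sh-NC cells, and bulk sh-B7-H3 (1) tumors 2.03 times that of the matching sorted cells.

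**Figure D1:**
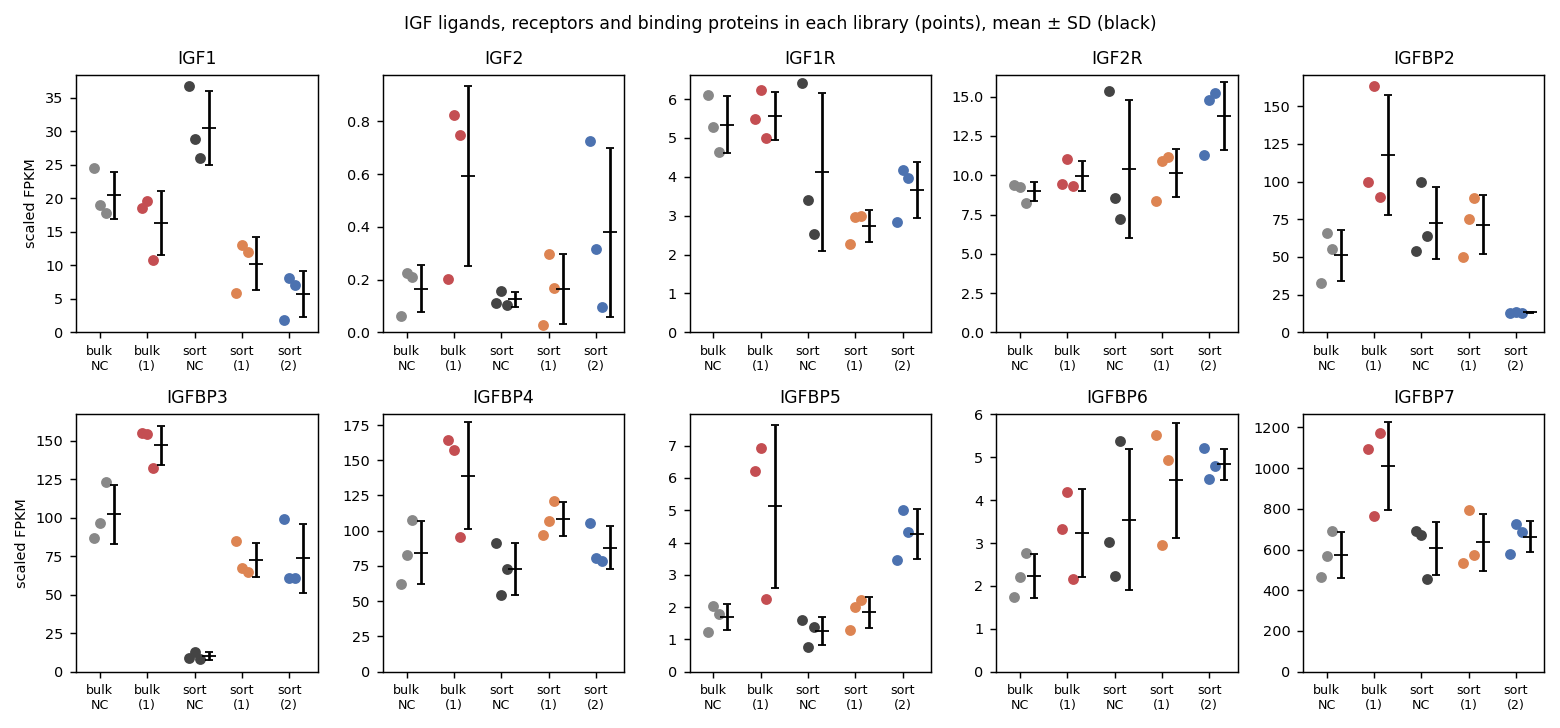
Scaled FPKM (y axes, starting at 0, 1 scale per gene) of the 10 genes in each library, with bulk and sorted (sort) groups on the x axes, NC for sh-NC, (1) and (2) for the B7-H3 shRNAs, points for libraries and black marks for mean ± SD of 3. IGFBP3 is near 10.1 in sorted sh-NC and between 60.6 and 155 in the other 12 libraries, IGF1 is highest in sorted sh-NC, and IGFBP2 is near 13.2 in sorted sh-B7-H3 (2).

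Host cell markers were set beside these levels. Bulk libraries had higher macrophage, fibroblast and endothelial marker sums than the sorted sh-NC libraries, and in bulk RNA fewer cells of a type and less RNA per cell cannot be told apart. Among sorted libraries, the 10 macrophage markers summed to 36.3 to 50.2 in sh-NC, 71.5 to 98.2 in sh-B7-H3 (1), and 62.9 and 73.6 in replicates 3 and 2 of sh-B7-H3 (2). The 8 endothelial markers summed to 0.306 to 0.771 in sorted sh-NC, 0.658 to 0.774 in sorted sh-B7-H3 (1) and 30.3 to 55.2 in bulk sh-NC. The 10 leukocyte markers summed to 0.763 to 1.38 in sorted sh-NC, where CD3E, CD4 and NKG7 were listed at 0 in all 3 libraries, and to 1.34 to 1.70 in sorted sh-B7-H3 (1). Endothelial and leukocyte markers were thus low in sorted sh-NC and sorted sh-B7-H3 (1). In replicates 2 and 3 of sorted sh-B7-H3 (2) the endothelial sums were 0.889 and 0.776 and the leukocyte sums 1.78 and 1.47. The macrophage-rich replicate 1 of that group stood at 26.0 and 63.9, so it was high in these markers as well. Of 6 macrophage markers tested in sorted sh-B7-H3 (1) against sh-NC, CSF1R rose by 1.67 and CD68 by 1.08 on the log2 scale (limma adjusted p = 0.000296 and 0.00768), and the others did not pass. Of 8 epithelial and renal markers tested, EPCAM, KRT18 and KRT19 rose, EPCAM by 2.73 (limma adjusted p = 9.77e-05), and the other 5 did not pass, with PAX8 at -0.41 and CDH1 at -0.35. The part of any of these in the IGFBP3 level was not tested.

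The ligand IGF1 went the other way in sorted cells. It stood at 36.8, 28.9 and 26.0 scaled FPKM in sorted sh-NC, at 5.81, 13.1 and 11.9 in sorted sh-B7-H3 (1), and at 1.79, 8.17 and 7.08 in sorted sh-B7-H3 (2). Every sorted sh-B7-H3 library was below every sorted control library. With sh-B7-H3 (1) IGF1 fell by 1.54 ± 0.28 on the log2 scale, a 2.91-fold difference (limma adjusted p = 0.00802, n = 3 per group). Among the 8 members other than IGFBP3 that passed the filter it was the only one called in that comparison, in which 13.4% of all 11163 tested genes were called. In cells labelled sh-B7-H3 (2) it fell by 2.40 ± 0.42 (adjusted p = 0.0061), and by 1.86 ± 0.18 without replicate 1 (adjusted p = 0.00126). There IGF1, IGFBP2 and IGFBP5 were called of 8 members, against 19.1% of 11243 genes. In bulk IGF1 was at 24.5, 18.99 and 17.9 with sh-NC and at 18.5, 19.7 and 10.8 with sh-B7-H3 (1). Those groups overlapped, and the difference of -0.34 ± 0.23 did not pass the test (limma adjusted p = 0.31). The sorted contrast was lower than the bulk contrast by -1.20 ± 0.40, given as a description. GENCODE places an antisense gene, Igf1os, across the start of IGF1, and how the counting treated strand is not given in the sources used here.

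**Figure D2:**
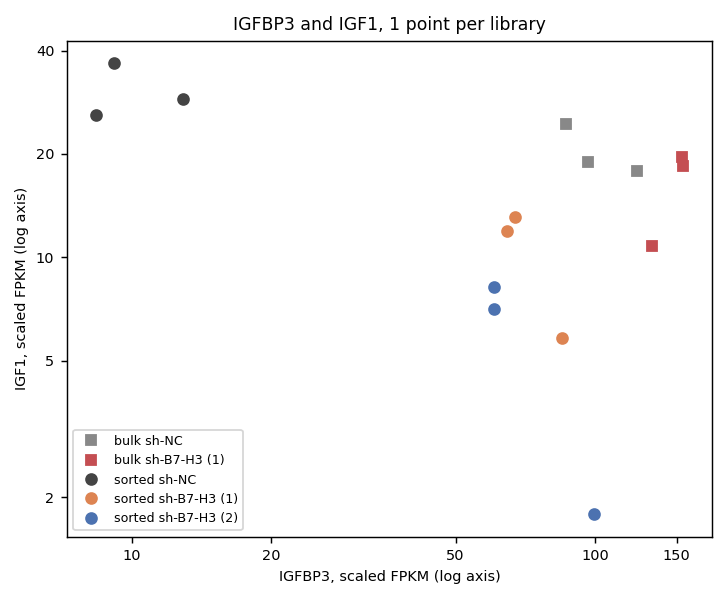
IGF1 (y axis) against IGFBP3 (x axis), both in scaled FPKM on log axes, with 1 point for each of the 15 libraries, squares for bulk tumors and circles for sorted cells. The 3 sorted sh-NC libraries sit at the upper left, with IGFBP3 from 8.39 to 12.9 and IGF1 from 26.0 to 36.8, and the library lowest in IGF1, at 1.79, is the macrophage-rich replicate 1 of sorted sh-B7-H3 (2).

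Over all 15 libraries, which share the groups and the scaling, IGF1 and IGFBP3 had a Pearson's r of -0.45 on the log2 scale. The other ligand, IGF2, was close to silent: its 15 values ran from 0.03 to 0.83 scaled FPKM, and it passed the filter in no comparison. In reads this is between 0.471 and 12.7 per library if its shortest transcript is counted, and between 3.42 and 92.0 if its longest is. Its 2 highest values, 0.83 and 0.75, were in replicates 2 and 3 of bulk sh-B7-H3 (1), which also held the most H19, a noncoding RNA of the same imprinted locus, at 12.9 and 9.69. Those 2 libraries had the highest sums of 5 skeletal muscle markers as well, 599 and 167. These sums were 2.50 to 18.3 in bulk sh-NC, and 46.9 to 91.3 in sorted sh-NC, where IGF2 was at 0.10 to 0.16. The next highest IGF2 value, 0.72, was in replicate 1 of sorted sh-B7-H3 (2), with H19 at 0.45 and a muscle sum of 32.3. The part of muscle RNA in IGF2 was not tested. IGF2 overlaps the antisense gene Igf2os over 7137 bases, so its reads may include both.

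The receptors passed the test against sh-NC with neither shRNA. IGF1R was at 6.41, 3.41 and 2.54 scaled FPKM in sorted sh-NC, at 2.27, 2.96 and 2.99 in sorted sh-B7-H3 (1) and at 2.83, 4.18 and 3.96 in sorted sh-B7-H3 (2). Replicate 1 of the control was well above the other 2 control libraries, and the 3 groups overlapped. Neither contrast passed, at -0.39 (95% interval -0.98 to 0.21) and -0.08 (-0.71 to 0.55) on the log2 scale (limma adjusted p = 0.426 and 0.877). In bulk IGF1R was at 6.10, 5.29 and 4.64 with sh-NC and at 5.48, 6.23 and 5.01 with sh-B7-H3 (1), a difference of 0.05 (-0.24 to 0.35). IGF1R passed in 1 comparison: it was 1.76-fold higher in bulk than in sorted sh-B7-H3 (1), by 0.82 ± 0.13 (limma adjusted p = 0.00415), with no overlap.

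IGF2R was the more abundant receptor per length in every library. It was at 15.4, 8.56 and 7.23 scaled FPKM in sorted sh-NC, at 8.36, 10.9 and 11.2 with sh-B7-H3 (1), at 11.3, 14.8 and 15.2 with sh-B7-H3 (2), and between 8.26 and 11.02 in the 6 bulk libraries. It passed the test in none of the 6 comparisons fitted with limma. The nearest was sh-B7-H3 (1) against sh-B7-H3 (2), whose groups did not overlap, at -0.41 ± 0.15 (limma adjusted p = 0.174). The sources used here do not state that the replicate numbers pair the libraries of that comparison. With the replicate number as a block, which assumes such a pairing, the limma adjusted p was 0.02.

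IGFBP2, which carries IGFs in many tissues, separated the 2 shRNAs. It was at 54.3, 99.6 and 64.2 scaled FPKM in sorted sh-NC and at 50.1, 75.2 and 88.9 in sorted sh-B7-H3 (1), but at 13.0, 13.6 and 13.1 in sorted cells labelled sh-B7-H3 (2). The last group lay below all 12 other libraries and had the smallest spread. Against sh-NC it fell by 2.33 ± 0.21 with sh-B7-H3 (2), a 5.02-fold difference (limma adjusted p = 0.000268) and by 2.32 without replicate 1, while sh-B7-H3 (1) gave -0.02, with a 95% interval of -0.66 to 0.62. The direct comparison put sh-B7-H3 (1) 2.31 ± 0.19 above sh-B7-H3 (2) (limma adjusted p = 0.00211), and 2.30 above it without that library. There IGFBP2 and IGFBP5 were called of 8 members, against 3.40% of all 11239 genes tested. With the replicate block, which raised the calls over all genes from 382 to 1864, IGF1 (0.86, adjusted p = 0.0289) and IGF2R were called too. In bulk IGFBP2 was at 32.5, 65.8 and 54.98 with sh-NC and at 99.99, 163 and 89.9 with sh-B7-H3 (1). The groups did not overlap, and it rose by 1.20 ± 0.31 (limma adjusted p = 0.037). This call was lost without replicate 1 of sh-B7-H3 (1) or without any of the 3 control libraries, with adjusted p up to 0.105.

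IGFBP5, which lies next to IGFBP2 and is bound to extracellular matrix in many tissues, was low, and rose in the sorted sh-B7-H3 (2) cells in which IGFBP2 fell. It was at 1.61, 0.76 and 1.39 scaled FPKM in sorted sh-NC, at 1.28, 2.00 and 2.22 with sh-B7-H3 (1), and at 3.47, 5.01 and 4.34 in cells labelled sh-B7-H3 (2). The last group was above all other sorted libraries. It rose by 1.24 ± 0.19 with sh-B7-H3 (2) (limma adjusted p = 0.00306) and by 1.35 without replicate 1, and 0.33 ± 0.19 with sh-B7-H3 (1) did not pass (adjusted p = 0.354). Between the shRNAs the difference was -0.90 ± 0.17 (limma adjusted p = 0.0335), a call lost in 5 of the 6 fits that left out 1 library but kept without the macrophage-rich replicate 1, at an adjusted p of 0.0105. Collagen genes of the fibroblast list moved with it. The 10 genes summed to 53.6 to 97.5 in sorted sh-NC, 67.9 to 94.6 with sh-B7-H3 (1) and 128 to 187 with sh-B7-H3 (2), where COL1A1, COL1A2 and COL3A1 rose of 7 tested and the others did not pass, with POSTN at -0.46 and PDGFRB at -0.18. In bulk IGFBP5 was at 1.24, 2.04 and 1.78 with sh-NC and at 6.20, 6.92 and 2.24 with sh-B7-H3 (1), with an adjusted p of 0.0583 by limma for 1.10 ± 0.34. Without replicate 3, the lowest of its group, the adjusted p was 0.00492.

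IGFBP7 was the most abundant member in every library. It was at 691, 671 and 455 scaled FPKM in sorted sh-NC, at 536, 796 and 575 with sh-B7-H3 (1) and at 579, 724 and 686 with sh-B7-H3 (2), groups that overlapped. In bulk it was at 464, 566 and 692 with sh-NC and at 1095, 765 and 1174 with sh-B7-H3 (1), without overlap. It rose there by 0.81 ± 0.22 (limma adjusted p = 0.0403), so IGFBP2 and IGFBP7 were called of 8 members, against 21.4% of 11800 genes. The IGFBP7 call was lost in 5 of the 6 fits without 1 library, each library apart from replicate 2 of sh-B7-H3 (1), with adjusted p up to 0.153.

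IGFBP4, whose cleavage by the protease PAPPA sets IGFs free, was higher in every sorted sh-B7-H3 (1) library, at 97.0, 107 and 121 scaled FPKM, than in sorted sh-NC, at 91.4, 54.1 and 72.7. The difference of 0.59 ± 0.20 did not pass (limma adjusted p = 0.11), nor did 0.71 ± 0.26 in bulk (adjusted p = 0.0933), where it was at 62.6, 83.1 and 108 with sh-NC and at 164, 157 and 95.8 with sh-B7-H3 (1). With sh-B7-H3 (2) it was at 105, 80.4 and 78.4. IGFBP6, which prefers IGF2 over IGF1, stayed between 1.73 and 5.51 in the 15 libraries and passed in no comparison.

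**Figure D3:**
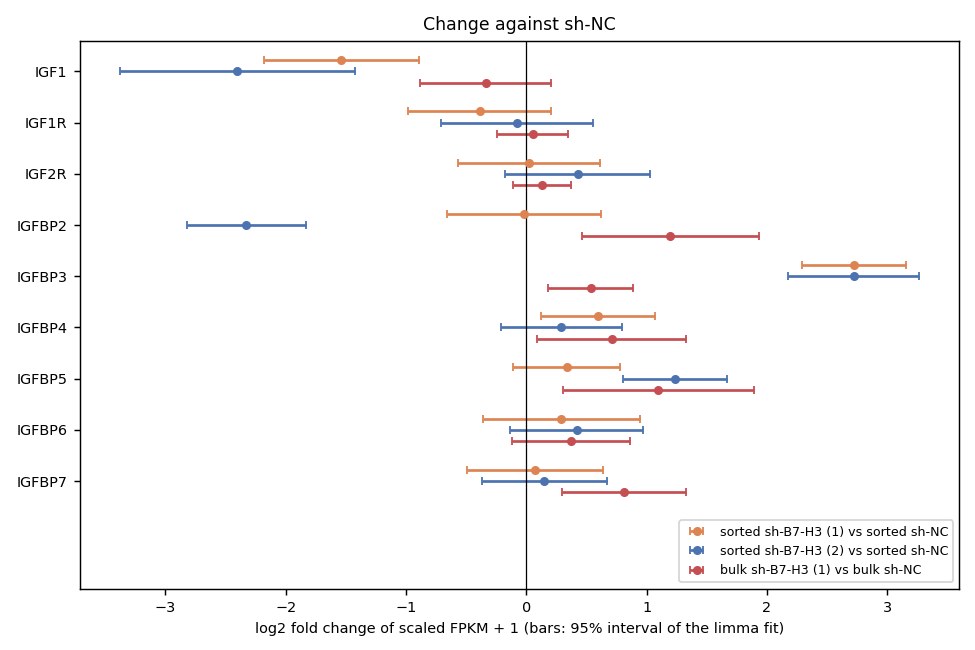
Log2 fold change of scaled FPKM plus 1 against sh-NC (x axis) for the 9 genes past the filter (y axis), with points for the limma estimate and bars for its 95% interval, in sorted cells with either shRNA and in bulk tumors with sh-B7-H3 (1). IGFBP3 stands at 2.73 and 2.72 in sorted cells and at 0.53 in bulk, IGF1 at -1.54, -2.40 and -0.34, and IGFBP2 at -0.02, -2.33 and 1.20. The bars of IGFBP3 are a description and not a test, since its values chose the family.

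Several marker sums in bulk lay above control along with IGFBP2 and IGFBP7, the 2 tested binding proteins called there. The 10 fibroblast genes summed to 144 to 260 scaled FPKM in bulk sh-NC and to 430 to 861 in bulk sh-B7-H3 (1), and 6 of the 8 tested rose. The 5 skeletal muscle markers summed to 28.7 to 599 against 2.50 to 18.3, the pericyte and smooth muscle sums were 153 to 302 against 108 to 138, and the epithelial and renal sums 1061 to 1411 against 799 to 907. The macrophage sums, 918 to 1564 against 879 to 1526, overlapped. Beside the fibroblast genes, RGS5, TAGLN, EPCAM, KRT19, CDH16, CKM, MYLPF, TNNT3 and the macrophage marker CD68 were called in these lists, all higher. The endothelial sums, 30.5 to 47.4 against 30.3 to 55.2, overlapped. Of 7 endothelial markers tested, CLDN5 alone was called, lower at -1.31 (limma adjusted p = 0.0441). Of 4 leukocyte markers tested, CD3E alone was called, higher. Replicate 3 of bulk sh-B7-H3 (1) had the lowest IGFBP2, IGFBP3, IGFBP4, IGFBP5 and IGFBP6 of its group, and the highest IGFBP7. It also had the lowest fibroblast (430), macrophage (918), endothelial (30.5), leukocyte (42.8) and adipocyte (6.16) sums of the group. Its epithelial and renal sum (1411) was the highest, and its muscle and pericyte sums were neither lowest nor highest. The highest fibroblast sum, 861, was in replicate 1, as were the highest IGFBP3 and IGFBP4, while IGFBP2, IGFBP5 and IGFBP6 were highest in replicate 2. The part of these cell types in the binding protein levels was not tested.

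As a pool, IGFBP2 to IGFBP7 summed to 607 to 851 scaled FPKM in sorted sh-NC, 775 to 1051 with sh-B7-H3 (1), 805 to 888 with sh-B7-H3 (2), 648 to 982 in bulk sh-NC and 1251 to 1524 in bulk sh-B7-H3 (1). IGFBP7 made up between 61.2% and 81.5% of the sum in each library. Of the sum without IGFBP7, IGFBP3 held 5.52% to 7.60% in sorted sh-NC and 22.9% to 46.9% elsewhere. In sorted sh-NC the rest was nearly all IGFBP2 and IGFBP4. In sorted sh-B7-H3 (2) most of the sum without IGFBP7 was IGFBP3 and IGFBP4, with IGFBP2 at 13.0 to 13.6 scaled FPKM. The sum without IGFBP7 was 152 to 170 in sorted sh-NC and 161 to 226 in sorted sh-B7-H3 (2).

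**Figure D4:**
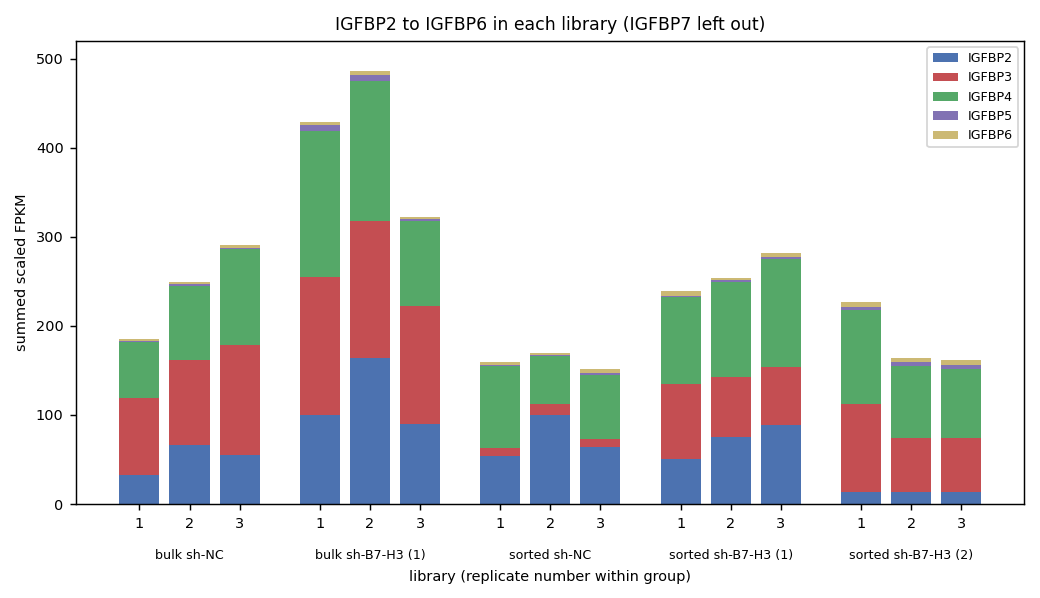
Summed scaled FPKM (y axis, from 0) of IGFBP2 to IGFBP6 in each of the 15 libraries (x axis, replicate numbers within groups), with 1 color per gene and IGFBP7 left out. The IGFBP3 segment is 5.52% to 7.60% of the bar in sorted sh-NC, and the IGFBP2 segment is near 13.2 in sorted sh-B7-H3 (2).

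Set against sorted cells of the same label, bulk sh-NC tumors differed in IGFBP3 but in no tested member: 0 of 8 were called by limma at an adjusted p of 0.05, and 1, IGF1, had an unadjusted p under 0.05, while 16.9% of 11418 genes were called. IGF1 was lower in bulk by -0.56 ± 0.18 (adjusted p = 0.0675), without overlap. Between bulk and sorted sh-B7-H3 (1), IGFBP5 (1.02 ± 0.33, limma adjusted p = 0.0427), IGFBP7 (0.67 ± 0.22, adjusted p = 0.0444) and IGF1R were higher in bulk. That is 3 of 8, against 38.2% of 11677 genes. The IGFBP5 call was lost in 5 of 6 fits that left out 1 library and the IGFBP7 call in 4 of 6, with adjusted p up to 0.156 and 0.149. As descriptions, the sh-B7-H3 (1) contrast in sorted cells minus that in bulk was -1.21 ± 0.46 for IGFBP2, -0.76 ± 0.42 for IGFBP5, -0.74 ± 0.34 for IGFBP7 and between -0.44 and -0.08 for IGFBP4, IGFBP6, IGF1R and IGF2R.

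Around the members, 41 genes of the pathway were listed. Of the 28 to 30 that passed the filter in a comparison, 1 was called with sh-B7-H3 (1) in sorted cells, 3 with sh-B7-H3 (2) and 8 in bulk, where 13.4%, 19.1% and 21.4% of all genes were called, with a median log2 change between -0.08 and 0.08, against 0.00 to 0.02 over all genes tested. Proteases of the binding proteins and their inhibitors included the gene that differed in all 3 contrasts. HTRA1, a secreted serine protease that cuts IGFBP5 among other proteins, was at 66.9, 68.7 and 59.3 scaled FPKM in sorted sh-NC, at 28.5, 28.5 and 30.4 with sh-B7-H3 (1) and at 24.6, 26.1 and 25.3 with sh-B7-H3 (2). It fell by 1.13 ± 0.12 and 1.32 ± 0.12 (limma adjusted p = 0.000603 and 0.000227). In bulk it was at 79.2, 64.3 and 70.6 with sh-NC and at 36.3, 42.5 and 20.3 with sh-B7-H3 (1), and fell by 1.15 ± 0.26 (limma adjusted p = 0.0246). No library labelled sh-B7-H3 reached the level of a control library. Without the macrophage-rich replicate 1, the fall with sh-B7-H3 (2) was 1.30 (adjusted p = 0.00205 by limma). The bulk call was lost without any of the 3 control libraries or without replicate 1 of sh-B7-H3 (1), with adjusted p up to 0.0854. STC2, an inhibitor of PAPPA, fell by 1.72 ± 0.30 with sh-B7-H3 (2) (limma adjusted p = 0.00602), from 14.1, 17.4 and 14.6 to 1.93, 5.55 and 5.30, and by 1.34 without replicate 1, the lowest (adjusted p = 0.00209). It had an adjusted p of 0.0506 for -0.72 with sh-B7-H3 (1). STC1, its relative, was at 1.81 to 4.58 in bulk and at no more than 0.41 in any sorted library. PAPPA itself lay between 0.0634 and 1.14.

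Below the receptors, PIK3R1, the regulatory subunit of PI3K, rose by 0.89 ± 0.16 in cells labelled sh-B7-H3 (2) (limma adjusted p = 0.00699), by 0.93 without replicate 1, and by 0.63 ± 0.10 in bulk sh-B7-H3 (1) (adjusted p = 0.00944). It was at 2.79, 1.81 and 1.68 scaled FPKM in sorted sh-NC, at 2.46, 3.28 and 2.51 with sh-B7-H3 (1), and at 4.41, 5.12 and 4.54 with sh-B7-H3 (2). It was the only pathway gene called between the shRNAs, at -0.61 ± 0.12 (limma adjusted p = 0.0381), a call lost in 5 of the 6 fits without 1 library and kept without the macrophage-rich replicate 1. Of the 23 tested signaling genes, 0 passed with sh-B7-H3 (1) in sorted cells, where 3 had an unadjusted p under 0.05 by limma, and 6 passed in bulk, against 21.4% of all genes. Among those, PIK3R1, IRS1 and SOS1 rose, and HRAS and MAP2K1 fell. IRS1, the docking protein of the insulin and IGF1 receptors, rose by 0.62 ± 0.16 (limma adjusted p = 0.0345). Of the other ligands, receptors and carriers, INSR alone passed the filter, and it rose in bulk by 0.42 ± 0.10 (limma adjusted p = 0.0316). The bulk calls of IRS1, INSR, SOS1, HRAS and MAP2K1 were each lost in at least 3 of the 6 fits without 1 library, and that of PIK3R1 without replicate 1 of sh-B7-H3 (1). INS1 and INS2 were listed at 0 in all 15 libraries, and IGFBP1, next to IGFBP3, was listed at 0 in 13 of them.

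**Figure D5:**
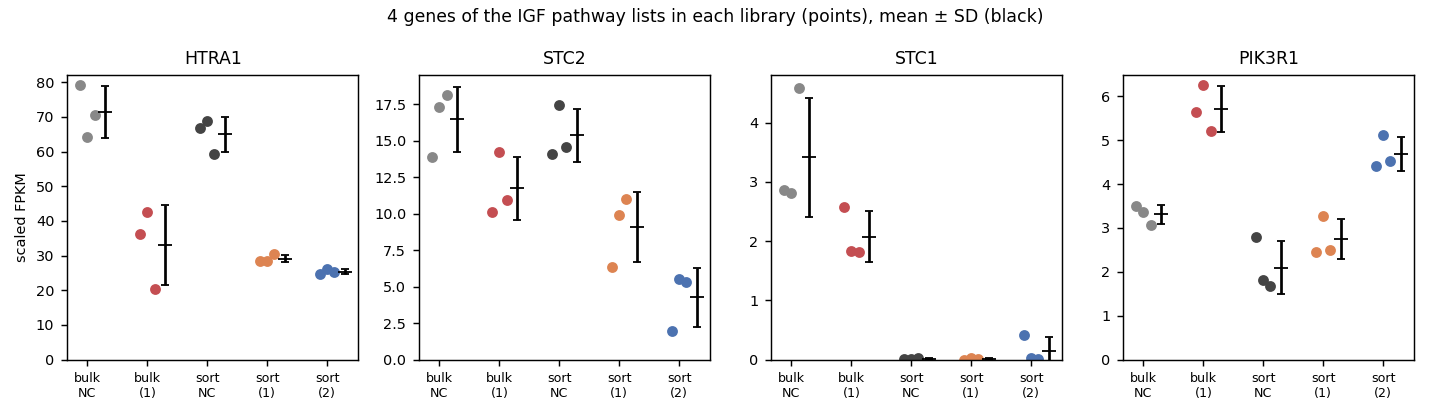
Scaled FPKM (y axes, from 0) of HTRA1, STC2, STC1 and PIK3R1 in each library (points, mean ± SD in black), by group on the x axes (sort for sorted cells, NC for sh-NC). HTRA1 is at 59.3 to 79.2 in the 6 sh-NC libraries and at 20.3 to 42.5 in the 9 libraries labelled sh-B7-H3, and STC1 is at 1.81 or more in each bulk library and at 0.41 or less in each sorted one.

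The genes whose log2 level over the 15 libraries was most like that of a member are given as a description, since all libraries share the 5 groups. Among 11604 genes, those nearest to IGFBP3 were CTSS (Pearson's r = 0.98), PTPN18 (0.96), ID3 (0.95), EPSTI1 (0.94) and GMFG (0.94). CTSS encodes a lysosomal protease of antigen presentation. Nearest to IGF1 were BCAT1 (0.96), CPEB1 (0.93) and WISP1 (0.93), and nearest to IGFBP2 were DKK3 (0.90), MYL9 (0.90) and FMOD (0.87). IGF1R was nearest to MAST2 (0.98), RUNX1 (0.97) and SOGA1 (0.97).

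In the order of group means, IGFBP3 went from bulk sh-B7-H3 (1) (147 ± 12.6 scaled FPKM, SD, n = 3) to bulk sh-NC (102 ± 19.03), sorted sh-B7-H3 (2) (73.5 ± 22.3), sorted sh-B7-H3 (1) (72.2 ± 11.03) and sorted sh-NC (10.1 ± 2.41). The middle 3 were not separated from their neighbors among themselves. IGF1 went from sorted sh-NC (30.6 ± 5.55) to bulk sh-NC (20.4 ± 3.55), bulk sh-B7-H3 (1) (16.3 ± 4.83), sorted sh-B7-H3 (1) (10.3 ± 3.91) and sorted sh-B7-H3 (2) (5.68 ± 3.41), and only the first step had no overlap. For IGFBP2 the last step, to sorted sh-B7-H3 (2), was the one without overlap.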

How the data were processed

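RNA-seq of mouse tumors was deposited as 1 table with a value per gene and library. The authors' files give FPKM, although the table is named for counts; its low values step in units of 1 read divided by gene length. The labels name the mm10 build and a stranded Illumina kit, the paper's methods the KAPA mRNA HyperPrep Kit with single-end reads of 75 cycles. The VIPER pipeline is named for the authors' own comparisons. Aligner, counter and annotation are not given in the sources used here. A further deposited table of log2 values for selected genes was not used. From 24917 entries, 26 whose symbols had become dates were left out.

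FPKM were scaled by the median ratio to the geometric mean, over 9872 genes at 1 FPKM or more in every library, since MIR6236 held 6.01% to 79.7% of a library's FPKM. All tests used log2 of the scaled value with a pseudocount of 1. A comparison covered genes reaching 1 scaled FPKM in 3 of its libraries or more, fitted by limma 3.58.1 (R 4.3.3, trended prior). Benjamini-Hochberg adjustment ran over every gene fitted, with 0.05 as the threshold, and "called" means past it. The fit was tested on simulated data. The plan was for 6 two-group comparisons, with the difference of contrasts as a description. Python 3.11.15 with pandas 2.3.3 and matplotlib 3.10.9 was used for tables and plots.

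Members and lists were chosen with earlier results of these data known. Named genes are the 10 members, CD276, called genes of 41 pathway genes, and the genes with the highest Pearson's r to a member among genes whose mean reached 1 scaled FPKM (5 for IGFBP3, 3 for others). H19, STC1, PAPPA, INS1, INS2 and IGFBP1 and marker genes were named after their values were seen. Marker lists were fibroblast, macrophage, endothelial, leukocyte, skeletal muscle, pericyte and smooth muscle, adipocyte, and epithelial and renal genes. The pericyte list summed to 34.1 to 100 scaled FPKM in sorted and 108 to 302 in bulk libraries, the adipocyte list to 5.27 to 126 and 6.16 to 282, and the epithelial list to 905 to 1882 and 799 to 1411.

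Replicates are separate samples by the labels. Whether each came from its own mouse is not given in the sources used here, and p-values measure the spread between these samples. Replicate numbers come from the sample titles. Same-numbered libraries deviated from their group means together in sorted sh-B7-H3 (1) and (2) (r = 0.21, 0.23 and 0.21 over 12194 genes). Differently numbered libraries were not compared in this way, and the sources used here state no pairing. A pairing by number is therefore an assumption of the replicate block. In the other group pairs r lay between -0.46 and 0.44, with at least 1 value under 0.1 in each. The estimated depth of 16400000 to 34800000 reads limits genes as low as IGF2. Alternatives were unscaled FPKM, quantile normalization, a pseudocount of 0.1, no filter, a replicate block, 1 fit of all 15 libraries, and leaving out each library. They were run for called pathway genes too, a choice made after seeing the data.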

Additional observations from a re-analysis of the deposited data

Results flagged for a closer look

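The shRNAs differed from each other in 2 members in sorted cells, by a limma test of sh-B7-H3 (1) against sh-B7-H3 (2), which is the test of the difference between their contrasts with the shared sh-NC group. IGFBP2 was 2.31 log2 units higher with sh-B7-H3 (1) (adjusted p = 0.00211), with 3 of 3 libraries above all of sh-B7-H3 (2), and was called in each alternative run. IGFBP5 was -0.90 in that comparison, lower with sh-B7-H3 (1) in 3 of 3 libraries (limma adjusted p = 0.0335), and its adjusted p lay between 0.0105 and 0.137 over the alternatives. CD276 RNA, collagen genes and the macrophage-rich replicate 1 also set sh-B7-H3 (2) apart, and their part was not tested.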

How the results depend on the processing

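Of the 576 alternatives to a member's log2 fold change, 496 kept direction and side of the threshold, 34 lost and 18 gained a call, and 28 turned direction. IGF1 in both sorted contrasts and IGFBP2 and IGFBP5 with sh-B7-H3 (2) passed in each alternative, save that IGF1 with sh-B7-H3 (1) missed with the replicate block (adjusted p = 0.0505). IGFBP3 exceeded its sorted control by 2.49 to 2.95 in each alternative, and the sorted contrast exceeded the bulk contrast by 1.91 with quantile normalization and by 2.05 to 2.36 when a replicate was left out. Without scaling and with quantile normalization IGFBP3 was 0.72 and 1.25 higher in bulk than in sorted sh-B7-H3 (1), and without sorted sh-NC replicate 1 the IGF2R difference of contrasts was 0.19.

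Counts of called members moved as follows, with the cause not tested. With sh-B7-H3 (1) in sorted cells, 1 became 2 without scaling, 0 with the replicate block and 1 to 2 without a replicate. Between the shRNAs, 2 became 1 with no filter or in 1 fit of all libraries, 4 with the block and 1 to 2 without a replicate. In bulk, 2 became 0 with no filter, 1 with the block and 0 to 3 without a replicate. Between bulk and sorted sh-NC, 0 became 1 with the block and 0 to 1 without a replicate. Between bulk and sorted sh-B7-H3 (1), 3 became 1 with no filter and 1 to 5 without a replicate. The sources used here state no pairing by replicate number in any comparison. Beyond the counts listed above, the block changed no count of members by over 1.5 times.

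Differences near 0 turned direction. Without scaling, IGFBP2 with sh-B7-H3 (1) in sorted cells was 0.18 and IGF1R with sh-B7-H3 (2) 0.10. With quantile normalization, IGF2R with sh-B7-H3 (1) was -0.034 in sorted cells, IGF1R in bulk -0.069, and IGFBP5 between bulk and sorted sh-NC -0.047. Without a replicate, values ranged, for sh-B7-H3 (1) in sorted cells, from -0.20 to 0.23 for IGFBP2, -0.12 to 0.19 for IGFBP7 and -0.18 to 0.32 for IGF2R. With sh-B7-H3 (2) they ranged from -0.045 to 0.26 for IGFBP7 and -0.31 to 0.22 for IGF1R, and between the shRNAs from -0.27 to 0.093 for IGFBP6 and -0.25 to 0.036 for IGFBP7. They ranged from -0.029 to 0.14 for IGF1R in bulk, from -0.27 to 0.072 for IGFBP7 and -0.33 to 0.17 for IGF2R between bulk and sorted sh-NC, and from -0.14 to 0.049 for IGF2R between bulk and sorted sh-B7-H3 (1).

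Over all genes, unscaled FPKM moved the median log2 change by 0.17 and 0.20 in the sorted contrasts, by -0.12 between bulk and sorted sh-NC, and by -0.26 between bulk and sorted sh-B7-H3 (1), and the share of higher calls from 67.3%, 61.1% and 55.2% to 84.2%, 83.2% and 22.8%. Quantile normalization gave 50.2% higher with sh-B7-H3 (2) in sorted cells. In bulk the share was 60.1%, and 70.2% or 46.3% under those 2 settings, and between bulk and sorted sh-NC 61.5%, and 79.8% or 43.0%. For bulk against sorted sh-B7-H3 (1) quantile normalization gave 45.0%, and for sh-B7-H3 (1) in sorted cells the block gave 77.9%. Calls over all genes went from 2520 to 961 and from 1924 to 652 in bulk and between bulk and sorted sh-NC without scaling, from 1924 to 3082 in 1 fit of all libraries, from 382 to 137 with no filter, and with the block from 1497 to 915, 2150 to 1395, 382 to 1864 and 2520 to 1413. Without a replicate the share of all genes called ranged from 6.65% to 17.6% for sh-B7-H3 (1) in sorted cells, 8.84% to 32.4% for sh-B7-H3 (2), 0.315% to 8.02% between the shRNAs, 4.74% to 33.0% in bulk, 1.27% to 39.2% between bulk and sorted sh-NC and 15.02% to 34.2% between bulk and sorted sh-B7-H3 (1), so the shares given beside the members' counts moved as well. The same alternatives, run for the called pathway genes after the data were seen, turned no direction. Depth limits IGF2, at 0.471 to 92.0 reads per library.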
